A study of Mus musculus with 10 samples.

Results

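The 9 genes described here encode enzymes of heme synthesis, in pathway order Alas1, Alas2, Alad, Uros, Urod, Cpox, Ppox and Fech, together with Hmox1, which encodes the inducible enzyme that breaks heme down. They were chosen by their role in the pathway and not by their values, and all 9 were found among the 52096 Ensembl genes of the deposited table. RNA sequencing covered 10 libraries of mouse bone marrow cells labelled hematopoietic stem cells, sorted from the lineage-negative, Sca-1-positive, Kit-positive gate as CD48-negative and CD150-positive. The FL group held 5 libraries with the genotype Nup214fl/+, and the HET group held 5 libraries with the genotype Nup214fl/+,Tie2-Cre. Both groups thus carried 1 floxed Nup214 allele, and the HET group also carried Cre under the Tie2 promoter, which is active in endothelial and blood lineages. A group with Cre and no floxed allele was not analysed here, so Cre and the loss of the allele cannot be told apart. The labels give neither the age of the mice nor whether each library came from its own mouse. All p-values therefore measure the spread among these libraries, part of which may be technical.

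Heme is an iron-containing ring that carries oxygen in hemoglobin and electrons in cytochromes, and it is the prosthetic group of catalase and myeloperoxidase. Its synthesis starts in the mitochondrion, where 5-aminolevulinate synthase joins glycine and succinyl-CoA in the rate-limiting step, continues in the cytosol and returns to the mitochondrion for the last steps. Alas1 encodes the synthase used by most cells and Alas2 the one used by erythroid cells. Heme oxygenase opens the ring and releases iron, carbon monoxide and biliverdin, and in marrow its inducible form is well known in macrophages that clear red cells. The series title names ferroptosis, a type of cell death that depends on iron.

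Sequences of the members are shown where they help to place the values. Promoter windows of 250 bases before the transcript start (RefSeq, GRCm38.p6) were found for 7 members, with 10 windows in all, and the missing entries are those of Fech and Hmox1. The GATA motif was searched as AGATAA or TGATAA on both strands. Cpox, the member with the smallest p, and Alas2, the erythroid synthase, both had a match 86 bases before their start. Uros had a match 68 bases before its downstream start. That match lies past the point, 134 bases into the window, where an annotated Uros exon begins. The motif was present in 3 of the members' 10 windows and in 16.6% of all 32851 windows, and a match is a description of the letters and not a bound site. The Cpox window lies at chr16:58669958-58670207 on the plus strand, and the Alas2 stretch at chrX:150547167-150547374 on the plus strand, ending where the first annotated exon begins. Capitals mark the GATA match and, near the beginning of the Alas2 stretch, a match to TATAAA on the other strand, a motif present in 12.4% of all windows.
Cpox: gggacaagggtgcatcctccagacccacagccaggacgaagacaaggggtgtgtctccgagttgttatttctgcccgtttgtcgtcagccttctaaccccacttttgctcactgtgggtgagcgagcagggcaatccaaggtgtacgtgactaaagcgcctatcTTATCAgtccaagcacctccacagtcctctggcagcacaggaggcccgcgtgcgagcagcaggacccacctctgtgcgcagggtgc
Alas2: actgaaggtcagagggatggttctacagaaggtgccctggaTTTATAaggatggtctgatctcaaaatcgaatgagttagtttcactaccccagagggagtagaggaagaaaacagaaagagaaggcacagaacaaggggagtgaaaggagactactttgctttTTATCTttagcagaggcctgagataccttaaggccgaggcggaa
The 5′ untranslated region of Alas2 also holds a stem-loop of the form bound by iron regulatory proteins, which control its translation and so act after the step that RNA levels measure. It is shown from the annotated transcript (GENCODE M21) with the 6 bases of the loop in capitals, and all 5 bases next to the loop on one side can pair with those on the other.
Alas2 stem-loop: ugguucguccuCAGUGCagggcaacagg

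Nup214, which encodes a nucleoporin and is the gene the floxed allele targets, was at 49.4 ± 13.4 FPKM (SD, n = 5) in the FL libraries and at 16.8 ± 8.89 in the HET libraries, a log2 difference of -1.59 that did not pass (limma adjusted p = 0.472). FPKM are fragment numbers scaled to transcript length and to the library total, and levels of genes and libraries are set side by side on that scale. Such comparisons are approximate, as the RNA was amplified and each value depends on the rest of its library's total. Among the markers of the sorted cells, Slamf1, which encodes CD150, ran from 2.59 to 4.94 FPKM and Kit from 105.5 to 208.8, while Mpo, a granule gene of myeloid progenitors, ran from 6828 to 11730. Macrophage markers were present too, with 16 of 17 passing the filter on low values and Vsig4 at no more than 0.44 FPKM. Of the tested markers of other cells, those of neutrophils had 9 of 9 higher fitted values in HET, those of B and plasma cells 4 of 5, those of NK and T cells 2 of 3 and those of megakaryocytes 1 of 8, HSC markers had 5 of 9, and 0 passed the test in any of these lists. Over all tested genes, 77.3% had a lower fitted value in HET. Library sums ran from 896054 to 1066190 FPKM. The sums of HET 2 to HET 5 lay above every FL sum, and that of HET 1 lay within the FL range. Read totals were not used here, and the commonest low value of protein-coding genes with 900 to 1200 exon bases, a guide to what 1 fragment is worth, ran from 0.04 FPKM in FL 4 and HET 4 to 0.12 in HET 3.

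No member of the pathway differed between HET and FL past an adjusted p of 0.05. Cpox and Hmox1 had the largest fitted differences, both toward lower levels in HET, and the log2 fold changes of the other 7 members ran from -0.22 to 0.16. The filter kept 13041 genes that reached 1 FPKM in 5 or more libraries, and all 9 members passed it. The test was limma on log2(FPKM + 1), with Benjamini-Hochberg adjustment over all tested genes, which called 0 of 9 members against 0% of all genes, the smallest adjusted p over all genes being 0.281. At an unadjusted limma p under 0.05, 1 member was lower in HET, against 8.95% of all genes, and none was higher. The fitted value was lower in HET for 6 of 9 members and for 77.3% of all genes, with a median of -0.13 for the members and -0.17 for all tested genes. Because the median of the tested genes was -0.17, each log2 fold change below is also given relative to it, as the median of all genes. That median depends on the filter. With no filter on low values it was -0.024 over 40571 genes. Alas2, Ppox and Fech then lay below it (-0.10, -0.11 and -0.093) and not above, while the other members stayed on the same side. The values of the 2 groups overlapped for every member, while 0.506% of all tested genes had groups that did not overlap.

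**Figure D1:**
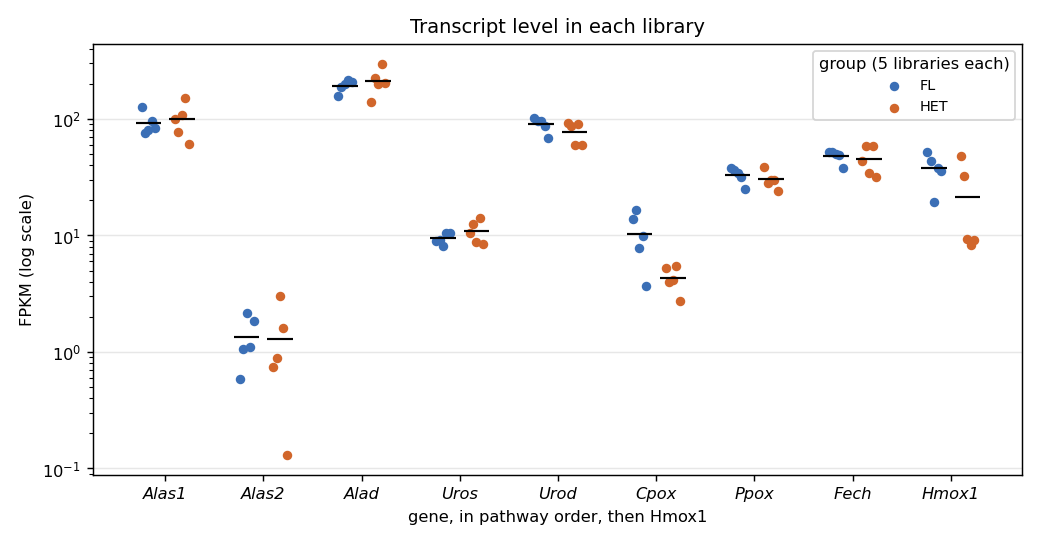
FPKM on a log axis for each of the 9 genes, with 1 point per library, FL in blue and HET in orange (5 libraries each), and a bar at the group mean. Alad had the highest and Alas2 the lowest mean level, and HET points of Cpox (2.75 to 5.49) and of Hmox1 in 3 libraries (8.30 to 9.40) sat low.

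The first enzyme was represented almost wholly by Alas1. Alas1 held 127.53, 76.11, 80.79, 95.14 and 82.93 FPKM in FL 1 to 5 and 99.74, 77.07, 107.51, 149.87 and 60.83 FPKM in HET 1 to 5. The groups overlapped, and HET held both the highest and the lowest library. Its means were 92.5 ± 20.8 FPKM (SD, n = 5) in FL and 99 ± 33.9 in HET, with a log2 fold change of 0.06 ± 0.22 (SE) and of 0.22 after the median of all genes was subtracted (limma adjusted p = 0.903). The sign of this difference turned without FL 2 (-0.0064) or HET 4 (-0.108). Alas1 (ENSMUSG00000032786) lies on chromosome 9 from 106233455 to 106248654 (GRCm38, as for all gene positions here), and 7.53% of its exon bases are shared with 4930500F10Rik on the opposite strand.

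Alas2, the erythroid synthase, had the lowest mean level of the set but was measured above 0 in every library. It held 0.59, 1.06, 2.14, 1.1 and 1.83 FPKM in FL 1 to 5 and 0.74, 0.89, 3.05, 1.61 and 0.13 FPKM in HET 1 to 5. HET spanned the whole range, with HET 3 highest and HET 5 lowest. It reached 1 FPKM in 4 FL and 2 HET libraries. The group means were 1.34 ± 0.628 and 1.28 ± 1.12 FPKM (SD, n = 5), and the log2 fold change was -0.13 ± 0.32 (SE), 0.04 above the median of all genes (limma adjusted p = 0.844). With a pseudocount of 0.1 or 0.01 in place of 1 it was -0.40 or -0.52, which lay below the median of all genes by a difference of -0.21 or -0.32, and neither passed (limma adjusted p = 0.740 and 0.713). Alas1 exceeded Alas2 in 10 of 10 libraries, and the ratio of their means over these was 72.9. In the annotation, 12.9% of the exon bases of Alas2 are shared with Apex2 on the opposite strand, a gene whose level was 5.66 ± 1.23 FPKM in FL libraries and 5.87 ± 1.72 in HET libraries. The labels name no strand marking, so reads of the 2 genes cannot be told apart there. Alas2 (ENSMUSG00000025270) lies on chromosome X from 150547375 to 150570638.

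The cytosolic steps included the highest transcript of the set and one of the lowest. Alad, whose product condenses 2 molecules of aminolevulinate into porphobilinogen, held 158, 187.07, 199.9, 215.11 and 207.32 FPKM in FL 1 to 5 and 138.55, 225.48, 199.57, 298.75 and 204.84 FPKM in HET 1 to 5. HET 4 was the highest and HET 1 the lowest, so HET enclosed the FL range. The means were 193.5 ± 22.4 and 213.4 ± 57.7 FPKM (SD, n = 5), with a log2 fold change of 0.11 ± 0.18 (SE), 0.27 above the median of all genes (limma adjusted p = 0.759), and of -0.025 without HET 4. Uros, whose product closes the ring to uroporphyrinogen III, held 8.93, 9.19, 8.16, 10.56 and 10.47 FPKM in FL 1 to 5 and 10.41, 12.6, 8.71, 14.26 and 8.4 FPKM in HET 1 to 5. Here HET 4 and HET 2 lay above all FL libraries, and the other HET libraries lay within the FL range. The fitted log2 difference was 0.16 ± 0.16 (SE), 0.33 above the median of all genes (limma adjusted p = 0.626). Urod, whose product removes carboxyl groups from the ring, held 102.59, 96.1, 95.57, 87.14 and 67.95 FPKM in FL 1 to 5 and 91.62, 87.12, 59.42, 90.36 and 59.46 FPKM in HET 1 to 5. The FL median of 95.6 FPKM was reached by no HET library, and HET 3 and HET 5 lay below every FL library. For Urod the fitted log2 difference was -0.22 ± 0.16 (SE), which was -0.06 after the median of all genes was subtracted (limma adjusted p = 0.536). Alad (ENSMUSG00000028393) and Urod (ENSMUSG00000028684) lie on chromosome 4, from 62509169 to 62519918 and from 116989965 to 116994413, and Uros (ENSMUSG00000030979) lies on chromosome 7 from 133686243 to 133710072.

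Cpox was the member with the smallest p. Its product, coproporphyrinogen oxidase, carries out the step with which the pathway returns to the mitochondrion. Cpox held 13.76, 16.61, 7.79, 9.96 and 3.67 FPKM in FL 1 to 5 and 5.27, 3.99, 4.11, 5.49 and 2.75 FPKM in HET 1 to 5. All 5 HET libraries lay below 4 of the FL libraries, and only FL 5 fell among the HET values. The means were 10.4 ± 5.05 FPKM (SD, n = 5) in FL and 4.32 ± 1.11 in HET, so the HET mean was 41.7% of the FL one. The log2 fold change was -0.98 ± 0.32 (SE), with a 95% interval from -1.68 to -0.29, and -0.82 after the median of all genes was subtracted. The limma adjusted p was 0.472, so the difference did not pass, and the unadjusted limma p was 0.00966. An exact permutation test (two-sided, 252 ways to assign the libraries) gave p = 0.0397 for Cpox, where 0.00794 is the smallest p possible, and 9 members were tested this way. Without FL 5 its log2 fold change was -1.27 and passed (limma adjusted p = 0.0188, range over 20 alternatives 0.00156 to 0.863), in a fit where 3.14% of all tested genes passed. FL 5 was the FL library among the HET values, so leaving it out had to widen the difference. Cpox passed in 3 of the 20 alternatives, each of which left out or down-weighted FL 5. Cpox (ENSMUSG00000022742) lies on chromosome 16 from 58670292 to 58717636, close to the window printed above, and shares 3.06% of its exon bases with Gpr15 on the opposite strand.

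Neither of the last 2 enzymes passed the test. Ppox, whose product oxidises protoporphyrinogen, held 38.08, 36.71, 34.42, 31.88 and 24.86 FPKM in FL 1 to 5 and 38.58, 28.4, 30.14, 30.07 and 24.04 FPKM in HET 1 to 5. The groups overlapped almost fully, with HET 1 highest and HET 5 lowest, and the fitted log2 difference was -0.13 ± 0.15 (SE), 0.03 above the median of all genes (limma adjusted p = 0.667). In the annotation 17.5% of the exon bases of Ppox are shared with B4galt3 on the opposite strand, whose level was 30.6 ± 6.22 FPKM in FL libraries and 26.9 ± 9.87 in HET libraries. Fech, whose product inserts iron into the ring, held 51.99, 51.97, 50.23, 48.66 and 37.98 FPKM in FL 1 to 5 and 43.54, 59.01, 34.33, 58.46 and 31.98 FPKM in HET 1 to 5. In FL all libraries but FL 5 lay close together, while HET split into HET 2 and HET 4 above them and the other 3 below 44 FPKM. For Fech the log2 fold change was -0.12 ± 0.18 (SE), 0.05 above the median of all genes (limma adjusted p = 0.745). Under median-ratio scaling of the libraries the signs of Ppox (0.0795) and Fech (0.0958) turned. Ppox (ENSMUSG00000062729) lies on chromosome 1 from 171275990 to 171281186, and Fech (ENSMUSG00000024588) lies on chromosome 18 from 64452914 to 64490251.

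Hmox1 varied widely among the HET libraries. It held 52.01, 43.47, 19.45, 38.28 and 35.5 FPKM in FL 1 to 5 and 47.92, 32.45, 9.4, 8.3 and 9.06 FPKM in HET 1 to 5. HET 3, HET 4 and HET 5 lay below every FL library, while HET 1 was the second highest of all 10 and HET 2 lay within the FL range. HET 3 and HET 5 also stood apart by their B and plasma cell markers, mostly immunoglobulin transcripts, which summed to 47780 and 101900 FPKM, against 2618 to 14500 in the other libraries, HET 4 being at 14500. Their part in the Hmox1 values was not tested. The means were 37.7 ± 12.0 FPKM (SD, n = 5) in FL and 21.4 ± 17.98 in HET, so the HET mean was 56.8% of the FL one. The log2 fold change of Hmox1 was -1.09 ± 0.50 (SE), with a 95% interval from -2.19 to 0.013, and -0.92 after the median of all genes was subtracted. It did not pass (limma adjusted p = 0.472). The exact two-sided permutation p was 0.0952, and for the 7 members other than Cpox and Hmox1 it ran from 0.190 to 0.825. Hmox1 (ENSMUSG00000005413) lies on chromosome 8 from 75093621 to 75100589.

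**Figure D2:**
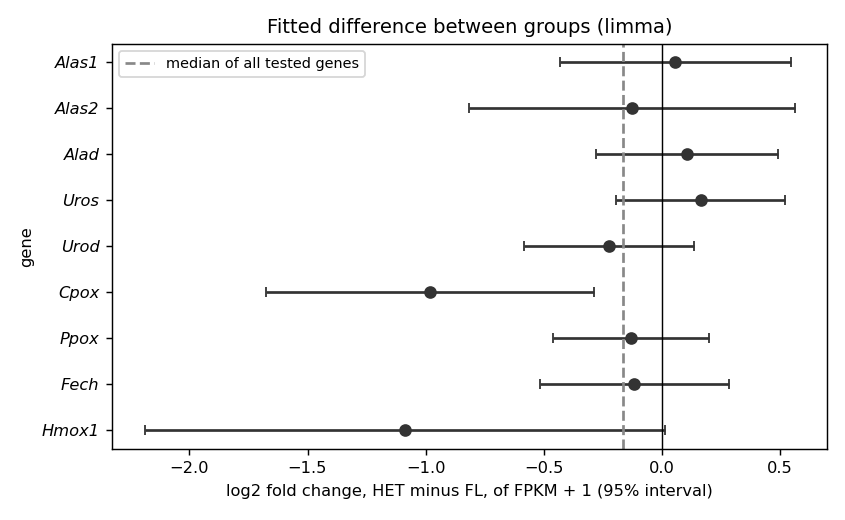
Fitted log2 fold change (HET minus FL) of each gene on the log2(FPKM + 1) scale, with the limma 95% interval, a solid line at 0 and a dashed line at the median of all tested genes (-0.17). The interval of Cpox lay wholly below 0, that of Hmox1 reached just past 0, and the others spanned 0.

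Set in order of mean level over the 10 libraries, the members ran from Alad at 203.5 ± 42.6 FPKM (SD, n = 10) through Alas1 at 95.8 ± 26.7, Urod at 83.7 ± 15.7, Fech at 46.8 ± 9.53, Ppox at 31.7 ± 5.19, Hmox1 at 29.6 ± 16.8, Uros at 10.2 ± 1.97 and Cpox at 7.34 ± 4.69 to Alas2 at 1.31 ± 0.856. Alad exceeded Alas1, Urod exceeded Fech, Fech exceeded Ppox and Cpox exceeded Alas2 in 10 of 10 libraries each. Alas1 and Urod did not separate, with Alas1 the higher in 7 of 10, nor did Ppox and Hmox1, with Ppox the higher in 4 of 10. Hmox1 exceeded Uros in 9 of 10 libraries. Uros exceeded Cpox in 8 of 10, in 3 FL and all 5 HET libraries. Relative to the mean, the spread over all libraries was smallest for Ppox at 16.4% and largest for Alas2 at 65.2%, Cpox at 63.9% and Hmox1 at 56.7%.

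Hmox1 and the macrophage markers moved together across libraries. The 17 macrophage markers summed to 540, 570, 301, 494 and 489 FPKM in FL 1 to 5 and to 568, 353, 188, 136 and 134 FPKM in HET 1 to 5. The 3 libraries with the lowest Hmox1 thus had the lowest sums, and FL 3, the FL library with the least Hmox1, had the lowest FL sum. On the log2 scale Pearson's r was 0.981 (permutation p = 1e-05, the smallest that 100000 permutations can give) and Spearman's rho 0.939 (permutation p = 0.00014) over 10 libraries. The Benjamini-Hochberg adjusted values over 27 relations of the 9 members with 3 marker lists were 0.00027 and 0.00189. These 27 relations were chosen after their values were seen, which the adjustment does not cover. Without the 2 libraries farthest from the median sum, HET 5 and HET 4, r was 0.973. Because HET 3, HET 4 and HET 5 were the lowest for both, the relation was also computed over the other 7 libraries, a choice made after the values were seen, where r was 0.920 (exact permutation p = 0.00198) and rho 0.857 (exact permutation p = 0.0238). With both measures centred by genotype and libraries permuted within each genotype, an analysis added after the data were seen, r was 0.974 (exact permutation p = 0.000625, adjusted over 27 relations 0.00844).

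By Pearson's r of log2(FPKM + 1) over the 10 libraries, the 4 tested genes most like Hmox1 were Fcna (0.985), Vcam1 (0.984), Ms4a7 (0.970) and C1qc (0.970), all 4 of which stood in the macrophage marker list. Spearman's rho for them ran from 0.939 to 0.964, and r without HET 4 and HET 5 from 0.962 to 0.977. They are given without p because they were picked as the highest of all tested genes, of which 50 had r above 0.9. The marker list was chosen with earlier results of these data known, so its overlap with these 4 genes is not separate support. Vcam1, an adhesion molecule of marrow macrophages among other cells, was at 76.0 ± 19.3 FPKM in FL libraries and 41.1 ± 32.6 in HET libraries, and C1qa, a complement gene of macrophages, 62.5 ± 10.2 and 36.0 ± 33.1. Spic, the transcription factor of red pulp macrophages, held 8.91 ± 3.43 and 4.29 ± 3.02, Mrc1 6.39 ± 1.36 and 3.36 ± 2.76, and Adgre1, a general macrophage surface marker, 5.41 ± 1.28 and 3.09 ± 2.43. Of the 16 tested macrophage markers all had a lower fitted value in HET (median -0.98, or -0.81 relative to all genes), against 77.3% of all genes. At an unadjusted limma p under 0.05, 12 of the 16 were lower, against 8.95% of all genes, and 0 passed when adjusted. Without FL 5 alone 0 of the 16 passed, without FL 5 and HET 1 13 passed, and with sample quality weights 10, in fits where 3.14%, 45.7% and 52.7% of all tested genes passed. Their part in the Hmox1 difference was not tested, and in bulk RNA fewer cells of a type and less RNA per cell cannot be told apart.

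**Figure D3:**
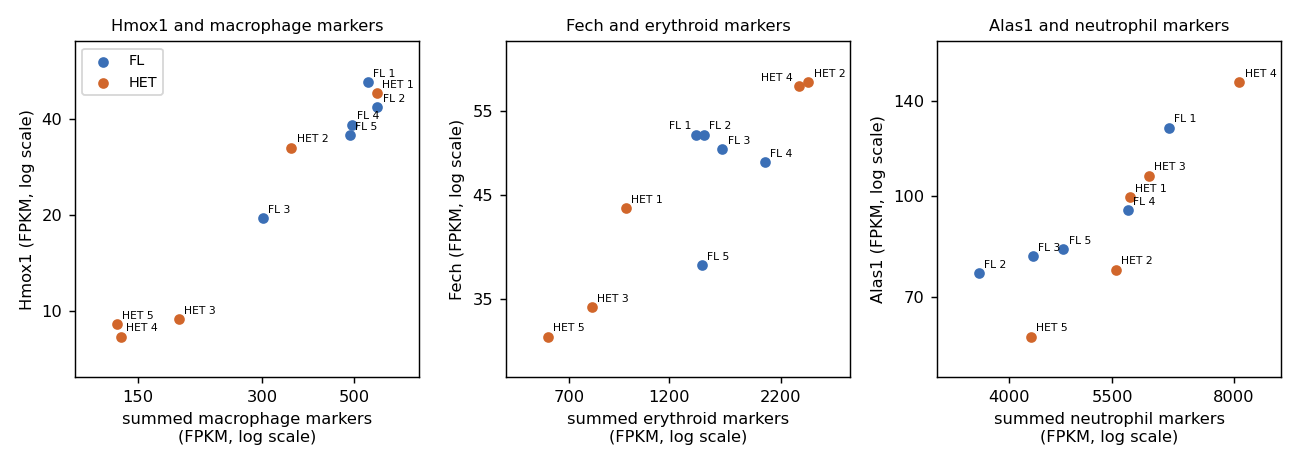
FPKM of Hmox1, Fech and Alas1 (vertical, log scale) against the summed FPKM of macrophage, erythroid and neutrophil markers (horizontal, log scale), with 1 labelled point per library. Hmox1 was higher where the macrophage sum was higher (r = 0.981), and HET 3, HET 4 and HET 5 lay at the low end of both.

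Alas1 moved across libraries with a neutrophil marker sum made up mostly of Elane and Prtn3, primary granule genes of neutrophil precursors. The 9 neutrophil markers, of whose sum these 2 genes made up 82.8% to 97.4%, summed to 6548, 3648, 4310, 5771 and 4731 FPKM in FL 1 to 5 and to 5809, 5566, 6162, 8140 and 4282 FPKM in HET 1 to 5. HET 4 was highest for both, and HET 5 was lowest for Alas1 and second lowest for the sum. Pearson's r was 0.875 (permutation p = 0.00099, adjusted 0.0107) and Spearman's rho 0.952 (permutation p = 8e-05, adjusted 0.00189), and r was 0.857 without FL 2 and HET 4. Centred by genotype, r was 0.924 (exact permutation p = 6.94e-05, the smallest these 14400 permutations can give, adjusted 0.00188). Over the other 7 neutrophil markers, a choice made after the data were seen, r was -0.0282 (permutation p = 0.938, adjusted 0.938) and rho -0.0545 (permutation p = 0.89, adjusted 0.89). The genes most like Alas1 were Elane, which encodes neutrophil elastase (r = 0.950), Ms4a3 (0.886), C3 (0.858) and Tm7sf3 (0.858), with r without HET 4 and HET 5 of 0.887, 0.974, 0.853 and 0.752. They were picked as the highest of all tested genes. Elane is also part of the marker sum, so its r and that of the sum are not separate results. Prtn3 alone was not set against Alas1. The part of the neutrophil markers in the Alas1 level was not tested.

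Fech moved with the erythroid markers across libraries by Pearson's r. The erythroid list, of which 15 of 16 genes were found, summed to 1393, 1448, 1601, 2014 and 1432 FPKM in FL 1 to 5 and to 951, 2553, 792, 2420 and 623 FPKM in HET 1 to 5. HET 2 and HET 4 were highest for both the sum and Fech, and HET 3 and HET 5 lowest for both. Pearson's r was 0.882 (permutation p = 0.00119, adjusted 0.0107), but Spearman's rho of 0.806 did not pass (permutation p = 0.00706, adjusted 0.0635). The value of r was 0.688 without HET 5 and HET 3. Car1, a carbonic anhydrase gene, made up 65.2% to 78% of the erythroid sum. Without it, a choice made after the data were seen, r was 0.938 (permutation p = 3e-05) and rho 0.939 (permutation p = 0.00017). Adjusted over 2 such relations these were 6e-05 and 0.00034. The 2 relations had been picked from the 27, and this adjustment does not cover that choice. With both measures centred by genotype, r with the whole sum was 0.877 and did not pass (exact permutation p = 0.0215, adjusted 0.145). No other member passed with the erythroid sum by either measure. Uros gave r = 0.697 (permutation p = 0.0256, adjusted 0.173). Centred by genotype, its r of 0.88 was close to that of Fech and did not pass (exact permutation p = 0.0157, adjusted 0.141). For Alas2 the relation with the whole sum, not centred, gave r = 0.207 (permutation p = 0.566, adjusted 0.804) and rho = 0.236 (permutation p = 0.514, adjusted 0.851). Epor, the erythropoietin receptor gene, was at 23.2 ± 3.32 FPKM in FL libraries and 21.8 ± 7.57 in HET libraries, and Hba-a1, an alpha globin gene, 68.8 ± 20.1 and 68.5 ± 59.2. All 13 tested erythroid markers had a fitted value below 0 (median -0.32, or -0.16 relative to all genes), against 77.3% of all genes. Of the 13, 10 kept that sign under median-ratio scaling, and 0 passed. The genes most like Alas2 were Bop1 (r = 0.889), Car13 (0.824), Orc6 (0.808) and Fanca (0.807), and without HET 3 and HET 5 these fell to between 0.539 and 0.726.

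**Figure D4:**
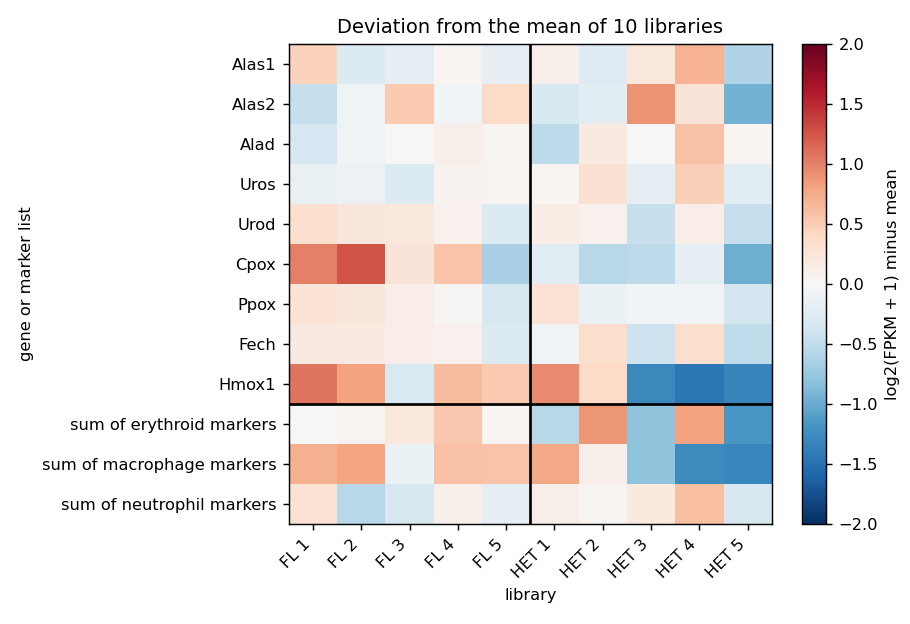
Deviation of log2(FPKM + 1) from its mean over the 10 libraries for the 9 genes and, below the line, for the summed erythroid, macrophage and neutrophil markers, with FL left and HET right of the vertical line. Hmox1 and the macrophage sum were both low in FL 3, HET 3, HET 4 and HET 5, and Cpox was low in all 5 HET libraries and in FL 5.

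No pair of members passed a test of moving together. Of 36 pairs, the highest Pearson's r were Urod with Fech (0.872, permutation p = 0.00298), Urod with Ppox (0.781, permutation p = 0.0096) and Cpox with Ppox (0.775, permutation p = 0.0101). Their Spearman's rho were 0.588 (permutation p = 0.0825), 0.782 (permutation p = 0.0105) and 0.770 (permutation p = 0.0128). After adjustment over the 36 pairs 0 passed by either measure, the lowest adjusted p being 0.107. Without the 2 farthest libraries, r was 0.621, 0.861 and 0.675. The lowest r was that of Alad with Hmox1 at -0.619 (permutation p = 0.0524), with a rho of -0.636 (permutation p = 0.055) and an r of -0.309 without HET 4 and HET 1.

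No gene that feeds precursors into the pathway or moves heme passed the test. Of 22 such genes 21 were tested, 17 with a lower and 4 with a higher fitted value, where 77.3% of all genes were lower. Their median was -0.15 (0.02 relative to all genes), and 0 were past the threshold in either direction. At an unadjusted limma p under 0.05, 3 of the 21 were lower in HET, against 8.95% of all genes. Under median-ratio scaling 8 were lower and 13 higher. Slc25a38, the carrier that brings glycine into mitochondria, was at 16.4 ± 2.003 FPKM (SD, n = 5) in FL libraries and 15.5 ± 3.93 in HET libraries, and Slc25a37, which encodes the iron importer mitoferrin, 11.1 ± 1.61 and 9.35 ± 2.39. Abcb10, a mitochondrial transporter needed for heme synthesis in erythroid cells, held 12.0 ± 1.15 and 11.6 ± 1.93, Tmem14c, which passes protoporphyrinogen into mitochondria, 171.6 ± 35.6 and 190.6 ± 66.2, and Clpx, a protease subunit that acts on aminolevulinate synthase, 20.5 ± 2.56 and 19.2 ± 3.80. The heme exporter gene Flvcr1 held 4.45 ± 1.26 and 3.45 ± 1.27, and Slc48a1, which moves heme out of lysosomes, 87.0 ± 10.5 and 77.4 ± 11.6. The 3 genes at an unadjusted limma p under 0.05, named after their values were seen, were Hebp1, which encodes a heme-binding protein, at 18.6 ± 4.57 FPKM in FL libraries and 10.4 ± 3.75 in HET libraries, Pgrmc2 at 1.83 ± 0.724 and 0.866 ± 0.487, and the iron importer gene Slc25a28 at 2.93 ± 0.550 and 1.93 ± 0.511 (limma adjusted p = 0.472 for each).

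The partners of Hmox1 in heme degradation gave no call. Hmox2, the constitutive heme oxygenase, was above Hmox1 in 10 of 10 libraries and was at 59.4 ± 6.87 FPKM in FL libraries and 50.5 ± 13.4 in HET libraries. The biliverdin reductase genes Blvra and Blvrb were at 39.1 ± 5.07 and 171.7 ± 24.6 FPKM in FL libraries and at 34.3 ± 6.84 and 147.7 ± 81.8 in HET libraries, and Por, which supplies electrons to heme oxygenase, 50.8 ± 3.88 and 53.1 ± 7.15. All 4 were tested, 3 with a lower and 1 with a higher value in HET, where 77.3% of all genes were lower. Their median was -0.23 (-0.06 relative to all genes), with 2 lower and 2 higher under median-ratio scaling, and 0 passed.

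No regulator of these genes passed the test. Of 12 regulators 11 were tested, 10 with a lower and 1 with a higher fitted value, where 77.3% of all genes were lower. Their median was -0.07 (0.09 relative to all genes), with 4 lower and 7 higher under median-ratio scaling, and 0 passed. Bach1, which encodes the heme-sensing repressor of Hmox1, was at 3.88 ± 0.873 FPKM in FL libraries and 2.40 ± 1.11 in HET libraries. It was the 1 regulator of 11 at an unadjusted limma p under 0.05 (0.0261, adjusted 0.472), where 8.95% of all genes were lower in HET. Nfe2l2, which encodes the activator NRF2, held 42.5 ± 2.07 and 41.95 ± 6.82 FPKM. The erythroid factors Gata1 and Klf1 were at 75.8 ± 10.6 and 88.9 ± 7.80 FPKM in FL libraries and at 58.3 ± 18.8 and 80.9 ± 37.8 in HET libraries, and Nfe2 224.6 ± 59.5 and 198.5 ± 60.6. Eif2ak1, which encodes the heme-regulated kinase of translation initiation, held 17.1 ± 2.23 and 16.3 ± 2.63, and the iron regulatory protein genes Aco1 and Ireb2 9.04 ± 0.958 and 5.36 ± 0.537 in FL and 8.74 ± 1.45 and 5.39 ± 1.37 in HET.

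Among genes of heme-using proteins none passed the test. Mpo, the myeloperoxidase gene, was at 8250 ± 1147 FPKM in FL libraries and 9573 ± 1937 in HET libraries, Cat, the catalase gene, 48.2 ± 4.19 and 46.2 ± 9.26, and Cybb, the heme-binding subunit of the phagocyte oxidase, 7.62 ± 1.40 and 7.60 ± 3.99. Cycs, which encodes cytochrome c, held 134.5 ± 19.0 and 107.3 ± 26.5, Cyb5a 140.6 ± 14.0 and 121 ± 23.5, and the beta globin gene Hbb-bs 28.8 ± 6.97 and 30.9 ± 20.9. Of 15 tested, 13 lay below 0 and 2 above in the fit, where 77.3% of all genes were lower. Their median was -0.23 (-0.06 relative to all genes), with 9 lower and 6 higher under median-ratio scaling, and 0 passed. Cox10, which encodes the enzyme that makes heme O for cytochrome oxidase, and Cyba, the partner subunit of Cybb, were the 2 at an unadjusted limma p under 0.05, named after their values were seen, at 21.6 ± 4.82 and 206.5 ± 31.2 FPKM in FL libraries and 14.9 ± 2.09 and 162.5 ± 40.3 in HET libraries. Over all tested genes, 8.95% were lower in HET at that unadjusted p.

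The count of members past the threshold changed with FL 5 and HET 1, to which sample quality weights gave the lowest values (0.236 and 0.149, the next being 0.786 for HET 5). Without both, Cpox (-1.33, limma adjusted p = 0.00156) and Ppox (-0.317, adjusted p = 0.0260) passed downward, 2 of 9 members against 45.7% of all tested genes. With the weights the same 2 genes passed (-1.10, limma adjusted p = 0.00340, and -0.266, adjusted p = 0.0315), against 52.7% of all genes. The weights were estimated from how far each library deviated from its own group in these same data. Weighting and leaving out both libraries are therefore not separate checks. In these 2 settings Ppox lay above the median of all genes by 0.0082 and 0.053, while Cpox lay at -1.01 and -0.78 relative to it. Of the genes around the pathway, 9 of 21 for precursors and transport, 2 of 4 for degradation, 3 of 11 regulators and 2 of 15 for heme-using proteins passed without both libraries, against the same 45.7%. Hmox1 did not pass in any of 20 alternatives (limma adjusted p from 0.0513 to 0.863), and was below 0 in each of them.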

How the data were processed

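The deposited table holds FPKM values per Ensembl gene, made by the authors. The submitters' processing notes list DESeq2, HTSeq, Cufflinks 2.1.1 and Bowtie 0.12.9 without saying what each did, and mm10 as the build. Per the labels' protocols, RNA was amplified by the Geo-seq method and made into libraries with a transposase kit. All 52096 identifiers matched GENCODE M21 (GRCm38). Values were analysed as log2(FPKM + 1) with limma 3.58.1 (R 4.3.3, intensity trend, robust shrinkage, genotype only), after a filter of 1 FPKM in 5 libraries, so fold changes of low genes are understated. The fit was tested on simulated data. Counts were not analysed here, so no counting intervals are given. Named genes were the members, fixed genes of each list, and the 4 genes most like Alas1, Alas2 and Hmox1. Members, lists and alternatives were chosen with earlier results of these data known, and the relations with marker sums, those within genotypes included, after their values were seen. One enzyme of the pathway is not reported here. Figures used Python 3.11.15 and matplotlib 3.10.9.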

Additional observations from a re-analysis of the deposited data

Results flagged for a closer look

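Fech in FL 5, at 37.98 FPKM, stood apart from the other 4 FL libraries, its gap to the nearest of them being 0.762 of the group's range, where 0.71 is the 95% critical value of Dixon's test for 5 samples. Among 18 sets of 5 values (9 genes in 2 groups) it was the 1 past that value, and chance gives about 1 in 20.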

How the results depend on the processing

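The alternatives were chosen with earlier results of these data known. The number of all tested genes past the threshold was 0 in the fit as reported, 1 under median-ratio scaling, 6869 with quality weights and 5954 without both FL 5 and HET 1. With 1 library left out it ran from 0 to 409, the highest without FL 5. The number of members past the threshold was 0 as reported, 2 with the weights, 2 without both libraries and, with 1 library left out, 0 to 1. The members' median log2 fold change of -0.13 turned to 0.0795 under median-ratio scaling, where the median of all genes was 0.019, and ran from -0.209 to -0.0053 with 1 library left out. Signs turned for Ppox (0.0795) and Fech (0.0958) under that scaling, for Alas1 without FL 2 (-0.0064) or HET 4 (range with 1 library left out -0.108 to 0.214), for Alad without HET 4 (-0.025 to 0.251), and for Alas2 without HET 5 (-0.367 to 0.093) or without both FL 5 and HET 1 (0.016). The causes were not tested. Cpox, Hmox1, Uros and Urod kept their sign in all 20 alternatives run, but Urod was only at -0.0085 under median-ratio scaling (limma adjusted p = 0.991). With the replicate number as a block, 0 genes and 0 members passed and the members' median was -0.13. Same-numbered libraries deviated together with correlations from -0.172 to 0.230, so the numbers were not taken to pair the libraries. FL 1 and FL 4 were the 2 of 5 FL libraries that matched best with their own number.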
